A study of Mus musculus with 8 samples.

Results

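A group of 10 secreted cytokines and colony-stimulating factors were followed through RNA sequencing of pancreatic ductal adenocarcinoma (PDAC) cells treated with a MEK inhibitor. They were the rows named Il1a, Il1rn, Il6, Il11, Il18, Il33, Lif, Csf1, Csf2 and Csf3, so 10 of the 34478 genes in the deposited table, chosen by name with earlier results of these data known. The cells were 4 primary murine lines, #1, #3, #5 and #10, each from a pancreatic tumor of a genetically engineered mouse model whose alleles include Ptf1awt/Cre and Trp53loxP/loxP, which the DMSO and the trametinib group share. In this model the Cre recombinase is made from the Ptf1a locus, so loss of Trp53 starts in the pancreatic lineage. The 4 trametinib libraries come from cells held for 48 h at the trametinib IC50 of their own line, a dose set by how strongly the drug lowered viability, and the 4 control libraries from cells given the solvent DMSO. There was 1 library per line and treatment. The labels do not say whether each line came from its own animal, and p-values measure only the spread between these lines. The lines were grown on their own in culture, and mRNA, not secreted protein, was measured.

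Library totals ran from 30680091 to 36385719 normalized counts, equal to about 29300000 to 45900000 reads as judged from the step between low values. A floor of 3 reads was then 2.33 to 3.72 normalized counts, and a value at or under it cannot be told from none. Dusp6, a phosphatase induced by ERK, fell by 2.51 on the log2 scale (SE 0.14, limma adjusted p = 0.00012). The epithelial keratins and Cdh1 were high in every library, with the 10 markers of ductal epithelium summing to 222363 to 350540 normalized counts with DMSO and 115075 to 223812 with trametinib, although Epcam was listed at 0 in lines #1, #5 and #10.

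The 10 genes belong to 3 groups of signals. The interleukin-1 family holds Il1a, an alarm signal stored in epithelial cells, Il33, a nuclear alarmin for innate lymphoid and T helper cells, Il18, which is made as a precursor and drives interferon-gamma production, and Il1rn, the antagonist that occupies the IL-1 receptor without signaling. Il6, Il11 and Lif signal through the shared receptor chain gp130 to STAT3. Csf1 (M-CSF), Csf2 (GM-CSF) and Csf3 (G-CSF) control macrophages, granulocytes and dendritic cells, and all 3 are known for shaping the myeloid cells of pancreatic tumors.

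Sequence features of the genes are shown first, since they set the genes apart. Many cytokine mRNAs carry AU-rich elements, ATTTA pentamers in the 3′ UTR that recruit decay factors. In the longest annotated 3′ UTR of each gene (GENCODE M21, GRCm38), the pentamer was densest in Csf2, with 9 copies in 317 bases or 28.4 per kb, against a median of 1.35 per kb over 19925 genes. Csf3 held 8.97 per kb, Il11 8.38 and Il6 6, while Il18, Il1a, Lif, Csf1 and Il33 held 1.79 to 2.99 and Il1rn held none in 1864 bases. The overlapping nonamer ATTTATTTA was found 5 times in Csf2 and 3 times in Il11 and in no other of the 10 genes, and 0.561% of 21028 genes held 3 or more. A stretch with a run of overlapping pentamers, 5 in Csf2 and 3 in Il11, is shown from each because such runs separate these genes from the other 8, with the run in capitals.
Csf2, 3′ UTR bases 231 to 259: ttttaaatATTTATTTATTTATTTATTTA
Il11, 3′ UTR bases 33 to 61: tttaaaaccagatcttATTTATTTATTTA
A match describes these letters and is not a measure of mRNA stability.

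The 250 bases before the start of transcription (RefSeq, GRCm38.p6) were available for 9 of the 10 genes in 13 entries and were searched on both strands for motifs of factors known at cytokine promoters. For Csf2 and Il18 the window does not adjoin the gene bounds given below. That of Csf2 lies at chr11:54249900-54250149, with the gene at 54247271-54249667. That of Il18 ends at chr9:50554699, with the gene starting at 50554827. The AP-1 motif TGANTCA was found in an entry of Il1a, Il1rn, Il6, Il11 and Lif, and 6.75% of 32851 promoters held it. The NF-kB motif was found in Il6, Lif and Csf1, against 7.25% of promoters. The C/EBP motif TTGCNNAA was found in Il33, Il6 and Csf2, against 9.56%. The motifs CRE (TGACGTCA, 1.55%), ETS (AGGAAGT, 7.69%), STAT (TTCNNNGAA, 7.02%), interferon response (2.98%) and the serum response CArG box (1.47%) were found in none of these 13 windows. The windows of 3 genes whose mRNA changed with trametinib are shown, 1 that rose and 2 that fell, with AP-1 and NF-kB matches in capitals.
Csf1, chr3:107760470-107760719, minus strand: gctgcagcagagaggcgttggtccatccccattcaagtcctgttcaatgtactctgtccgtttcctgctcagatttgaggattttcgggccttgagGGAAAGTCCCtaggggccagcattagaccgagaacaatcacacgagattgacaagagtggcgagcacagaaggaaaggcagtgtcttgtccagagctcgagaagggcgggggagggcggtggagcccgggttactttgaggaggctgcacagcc
Il1rn, first entry, chr2:24336610-24336859, plus strand: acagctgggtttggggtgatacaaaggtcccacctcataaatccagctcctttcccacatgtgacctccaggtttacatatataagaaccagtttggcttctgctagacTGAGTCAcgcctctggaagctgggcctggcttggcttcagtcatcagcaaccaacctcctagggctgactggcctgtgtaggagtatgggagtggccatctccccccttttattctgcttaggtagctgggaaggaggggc
Lif, chr11:4257318-4257567, plus strand: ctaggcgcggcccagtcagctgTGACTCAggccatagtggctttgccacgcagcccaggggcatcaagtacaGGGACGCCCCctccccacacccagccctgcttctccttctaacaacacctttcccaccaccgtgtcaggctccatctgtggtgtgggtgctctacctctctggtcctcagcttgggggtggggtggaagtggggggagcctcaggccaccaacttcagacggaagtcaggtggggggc
The NF-kB match of Csf1 began 154 bases before the start, the AP-1 match of Il1rn 141 bases before it, and in Lif AP-1 began 228 and NF-kB 178 bases before it.

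The main question was how MEK inhibition changed the cytokine mRNAs. Genes were compared with limma on log2(normalized count + 1), a scale that understates changes of low genes, with a block for the line and p-values adjusted by Benjamini-Hochberg across 15888 genes whose mean reached 10. Of the 10 cytokines 8 passed this filter. With trametinib Csf1 and Il18 were higher, Il1rn, Il33, Csf2 and Lif were lower, and Il11 and Csf3 did not pass the test at an adjusted p of 0.05. Over all genes tested 27.3% were called higher and 25.6% lower, so calls as such were common, and 2 higher and 4 lower of 8 are to be read against these shares. The median log2 fold change of the 8 genes was -0.36, against 0.072 over all genes tested. With libraries rescaled to equal totals, the median of all genes was 0.20, and 61.9% of all calls were higher in place of 51.6%. The DMSO and trametinib values of 5 of the 8 genes did not overlap, compared with 31.3% of all genes tested.

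**Figure D1:**
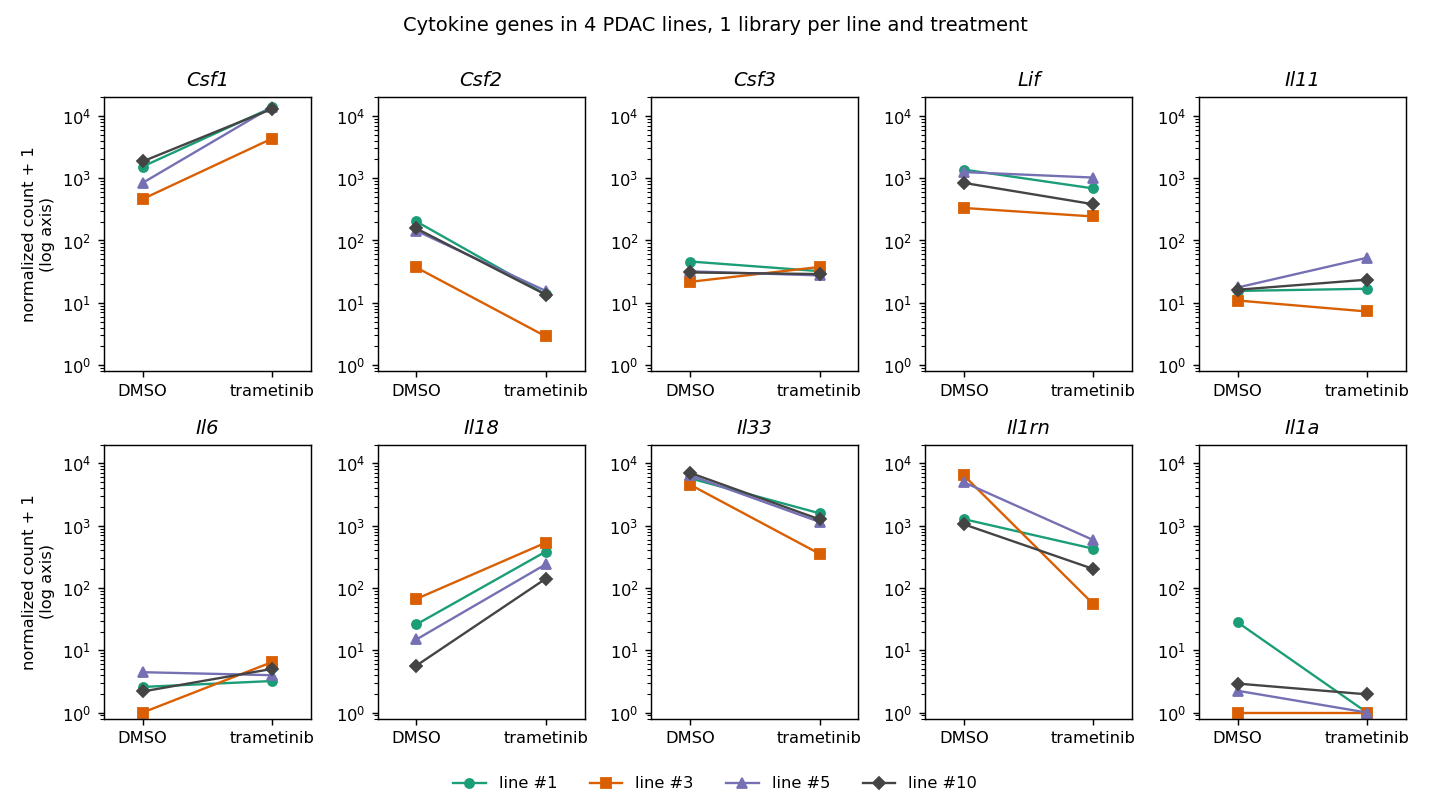
Normalized count + 1 (log axis) of the 10 cytokine genes with DMSO and trametinib, with a line joining the 2 libraries of each cell line. Csf1 and Il18 rise and Csf2, Il33 and Il1rn fall in all 4 lines without overlap, while Il6 and nearly all Il1a values lie near the bottom of the axis.

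Among the colony-stimulating factors, Csf1 and Csf2 moved in opposite directions in every line. Csf1 (chr3:107741048-107760469, minus strand) is the growth factor that keeps macrophages alive. Its normalized counts under DMSO were 1533, 461, 839 and 1855 (lines #1, #3, #5 and #10), and with trametinib they were 13649, 4326, 13940 and 12935. Every trametinib library was above every DMSO library, and line #3 was the lowest line in both groups. The rise was 8.90-fold in line #1, 9.38-fold in line #3, 16.6-fold in line #5 and 6.97-fold in line #10. In limma the log2 fold change was 3.31 (SE 0.19, 95% interval 2.85 to 3.77, limma adjusted p = 0.00015), which put Csf1 at rank 189 from the highest among 15888 genes. Per kb of annotated exon, Csf1 went from 222 ± 120 to 2123 ± 873 normalized counts (mean ± SD, n = 4 lines) and was the highest of the 10 genes with trametinib.

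Csf2 (chr11:54247271-54249667, minus strand), the factor for granulocytes, macrophages and dendritic cells whose 3′ UTR stretch is shown above, had DMSO values of 201, 35.9, 142 and 155 normalized counts (lines #1, #3, #5 and #10). With trametinib it stood at 12.6, 1.89, 14.5 and 12.5. The groups did not overlap, and the trametinib value of line #3 was under the floor of 3 reads. The fall was 16-fold in line #1, 9.74-fold in line #5 and 12.4-fold in line #10. In line #3 the ratio of 19 rests on about 35 reads against 2, with a 95% counting interval of 4.98 to 167. Over the 4 lines the log2 fold change was -3.57 (SE 0.26, 95% interval -4.20 to -2.95, limma adjusted p = 0.00026), at rank 42 from the lowest. The exons of Csf2 overlap Gm12223 on the opposite strand, which was listed at 0 in 7 libraries and at 0.933 in the other.

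Csf3 (chr11:98701263-98703629, plus strand), the granulocyte factor, had DMSO values of 45.0, 20.7, 31.0 and 29.7 and trametinib values of 31.2, 36.6, 26.5 and 27.9 normalized counts (lines #1, #3, #5 and #10). The groups overlapped, with a rise in line #3 and lower values in the other lines. The log2 fold change was -0.0063 (SE 0.31, limma adjusted p = 0.99), and the 95% interval of -0.74 to 0.73 leaves room for a change of either sign, as it also turned to 0.12 with libraries rescaled to equal totals.

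Within the interleukin-1 family, Il18 rose while Il33 and Il1rn fell, and Il1a was close to the detection limit. Il18 (chr9:50554827-50581840, plus strand) had DMSO values of 25.0, 65.7, 13.9 and 4.67 normalized counts (lines #1, #3, #5 and #10) and trametinib values of 383, 533, 239 and 140. The groups did not overlap, and the lines kept the same order in both, with line #3 highest and line #10 lowest. The rise was 15.3-fold, 8.11-fold, 17.2-fold and 30-fold, and the last value rests on about 5 reads with DMSO. In limma the log2 fold change was 3.88 (SE 0.29, 95% interval 3.18 to 4.58, limma adjusted p = 0.00029), at rank 94 from the highest.

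Il33 (chr19:29925114-29960718, plus strand) was the most abundant of the 10 genes with DMSO, at 2060 ± 370 normalized counts per kb of exon (mean ± SD, n = 4 lines). It had DMSO values of 5764, 4550, 6418 and 7046 and trametinib values of 1581, 353, 1150 and 1263 normalized counts (lines #1, #3, #5 and #10). All trametinib libraries were below all DMSO libraries, and line #3 was lowest in both groups. The fall was 3.65-fold, 12.9-fold, 5.58-fold and 5.58-fold. Over the 4 lines the log2 fold change was -2.63 (SE 0.27, 95% interval -3.26 to -1.99, limma adjusted p = 0.00058). With trametinib Il33 was still at 377 ± 181 normalized counts per kb, second to Csf1.

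Il1rn (chr2:24336853-24351494, plus strand) showed the widest spread of changes among the 8 tested genes. With DMSO it stood at 1273, 6410, 4976 and 1052 normalized counts (lines #1, #3, #5 and #10), and with trametinib at 426, 54.3, 587 and 201. Line #3 was the highest line with DMSO and the lowest with trametinib, yet the groups did not overlap. The fall was 2.99-fold in line #1, 118-fold in line #3, 8.48-fold in line #5 and 5.24-fold in line #10. The log2 fold change was -3.48 (SE 0.79, 95% interval -5.35 to -1.60, limma adjusted p = 0.0096). Without line #3 it was -2.35 (SE 0.26, limma adjusted p = 0.00076), a smaller fall with a smaller error.

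Il1a (chr2:129299610-129309972, minus strand), which Il1rn opposes at the receptor, had DMSO values of 27.1, 0, 1.24 and 1.92 normalized counts (lines #1, #3, #5 and #10) and trametinib values of 0, 0, 0 and 0.961. Only the DMSO library of line #1 was above the floor of 3 reads. In line #1 the DMSO value of Il1a, about 35 reads, was 9.24 times the floor of its trametinib library, a figure without the counting error of those reads. No fold can be given for the other lines. Il1a did not pass the filter, and its change was not compared with that of Il1rn. Il1b, the other IL-1 agonist, was listed at 0 in 7 libraries and at 0.957 in the other, so IL-1 agonist mRNA was scarce. Per kb of exon, Il1rn averaged 619 normalized counts against 3.83 for Il1a with DMSO, and 57.3 against 0.122 with trametinib (n = 4 lines). The exons of Il1a overlap Gm14023 on the opposite strand, for which the limma log2 fold change was 0.13 (adjusted p = 0.76).

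Of the gp130 cytokines, Lif was lower and Il6 was scarcely detected. Lif (chr11:4257557-4272514, plus strand), a factor by which stromal cells signal to tumor cells in the pancreas, had DMSO values of 1373, 332, 1253 and 840 normalized counts (lines #1, #3, #5 and #10) and trametinib values of 684, 242, 1023 and 381. It was lower in 4 of 4 lines, but the groups overlapped, and the lines differed more than the treatments. The fall was 2.01-fold, 1.37-fold, 1.22-fold and 2.21-fold. In limma the log2 fold change was -0.72 (SE 0.17, 95% interval -1.12 to -0.32, limma adjusted p = 0.011). The call was lost without the block for the line (limma adjusted p = 0.35) and without line #1 (log2 fold change -0.63, limma adjusted p = 0.054).

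Il11 (chr7:4772373-4782859, minus strand), a profibrotic cytokine, had DMSO values of 14.5, 9.88, 16.6 and 15.2 normalized counts (lines #1, #3, #5 and #10) and trametinib values of 15.8, 6.25, 51.9 and 22.5. Line #5 had by far the highest trametinib value, line #3 had the lowest, and the groups overlapped. Over the 4 lines the log2 fold change was 0.42 (SE 0.42, 95% interval -0.59 to 1.42, limma adjusted p = 0.43). It was 0.023 without line #5, 0.75 without line #3 and 0.028 with quantile normalization, and was called in none of the 13 alternatives that gave a value. Il6 (chr5:30013114-30019981, plus strand), the best-known STAT3 activator in pancreatic tumors, had DMSO values of 1.58, 0, 3.45 and 1.18 and trametinib values of 2.21, 5.46, 2.98 and 4.02 normalized counts in the same order of lines. All 4 DMSO values and the trametinib value of line #1 were at or under the floor. In line #3 the trametinib value of Il6, about 6 reads, was 1.75 times the floor of its DMSO library, a figure without the counting error of those reads. The ratio of DMSO to trametinib had a counting interval of 0.17 to 6.86 in line #5 and 0.00506 to 2.52 in line #10. In the same limma test with no filter, neither Il6 (log2 fold change 1.01, adjusted p = 0.26) nor Il1a (-1.64, adjusted p = 0.19) was called.

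**Figure D2:**
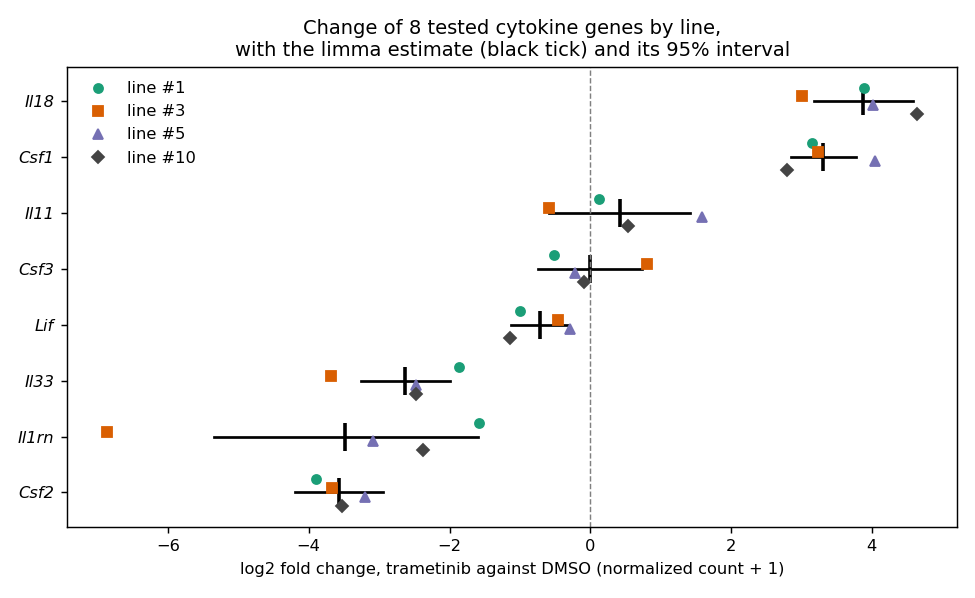
Log2 fold change with trametinib of the 8 tested cytokine genes in each line (colored symbols), with the limma estimate (black tick) and its 95% interval (black bar). The 4 lines of Csf2 lie between -3.89 and -3.20, whereas those of Il1rn run from -6.86 to -1.58.

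By length, the order of the 10 genes changed between the groups. Per kb of exon with DMSO, Il33 was followed by Il1rn at 619 ± 485 normalized counts, Csf1 at 222 ± 120, Lif at 218 ± 108 and Csf2 at 167 ± 87.3 (mean ± SD, n = 4 lines). The ranges within 1 SD of these last 4 overlap, so their order is not resolved. Il18 at 26.5 ± 26.1, Csf3 at 22.4 ± 7.09, Il11 at 6.75 ± 1.39, Il1a at 3.83 ± 6.62 and Il6 at 0.639 ± 0.590 followed. With trametinib Csf1 and Il33 were followed by Il18 at 314 ± 167, Lif at 134 ± 79.8 and Il1rn at 57.3 ± 42.6, then by Csf3 at 21.6 ± 3.20, Csf2 at 13 ± 7.16, Il11 at 11.6 ± 9.46, Il6 at 1.51 ± 0.578 and Il1a at 0.122 ± 0.243. With DMSO the range of Il18 within 1 SD also overlapped those of Csf3, Il11, Il1a and Il6, and that of Il1a overlapped those of Il11 and Il6, while Csf3, Il11 and Il6 did not overlap each other. With trametinib each gene from Il33 down to Il11 overlapped its neighbor in this order, and only Csf1, Il6 and Il1a stood apart.

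Lines also differed in cytokine level irrespective of treatment. In the F-test of the line terms of the same limma fit, 4 of the 8 genes were called, where 27.6% of all genes tested were. These were Lif (limma adjusted p = 0.0073), Csf1 (0.014), Csf2 (0.014) and Il18 (0.018). Line #3 was lowest for Lif, Csf1 and Csf2 and highest for Il18. Without line #3 the limma line test gave an adjusted p of 0.30 for Csf1 and 0.87 for Csf2, and 0.034 for Lif and 0.025 for Il18. Without line #10 that of Il18 was 0.063, and with eBayes without a trend that of Csf1 was 0.060, so 3 genes were called in each of these fits. For Il1rn the adjusted p of this test was 0.49 with all lines and 0.020 without line #3.

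The split of variation separated the genes further. Treatment held 82.9% of the sum of squares of Csf1 over the 8 libraries, 81.9% of that of Il33, 77.5% of Il18, 77.1% of Csf2 and 66.4% of Il1rn. For Lif 79.0% lay between lines and 16.9% between treatments. The remainder, which the additive terms leave, was 0.386% for Csf2 and 22.5% for Il1rn, and the log2 change by line ran from -3.89 to -3.20 for Csf2 and from -6.86 to -1.58 for Il1rn. With 1 library per line and treatment this remainder cannot be separated from error between libraries.

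**Figure D3:**
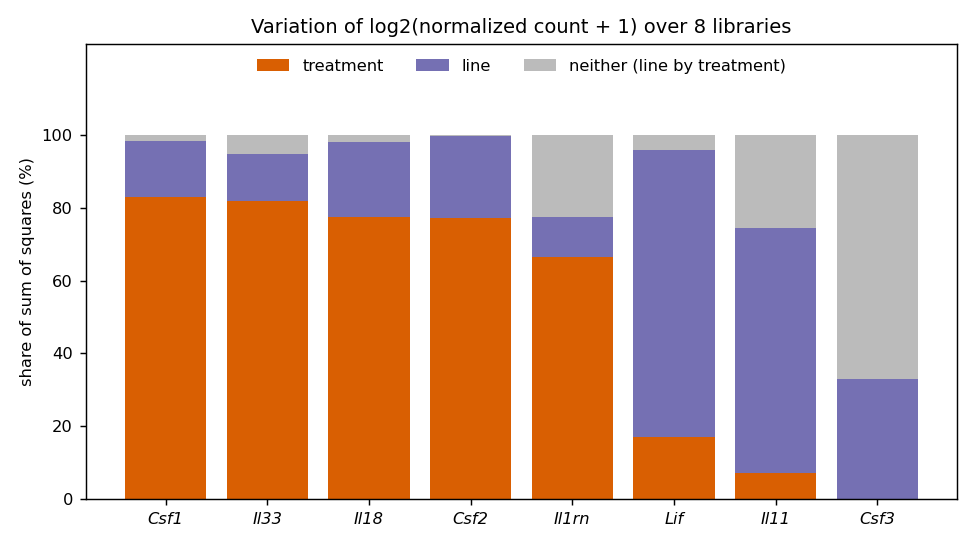
Share (%) of the sum of squares of log2(normalized count + 1) over 8 libraries that lies between treatments, between lines and in neither, for the 8 tested cytokine genes. Treatment holds most of the variation for Csf1, Il33, Il18, Csf2 and Il1rn, the line holds most for Lif and Il11, and neither term holds most for Csf3.

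Whether the cells carry the matching receptors was read from the 16 receptor chains of these cytokines, of which 11 were tested, 5 were higher and 1 was lower with trametinib (median log2 fold change 0.58), where 27.3% of all genes tested were called higher and 25.6% lower. Il6st, the gp130 chain itself, had DMSO values of 3182, 2647, 3696 and 1669 normalized counts (lines #1, #3, #5 and #10) and trametinib values of 7768, 7292, 9332 and 4756. All trametinib libraries were above all DMSO libraries, and the log2 fold change was 1.40 (SE 0.082, limma adjusted p = 0.00015). Il11ra1, the IL-11 binding chain, rose by 1.04 (SE 0.21, limma adjusted p = 0.0058), while values for Il6ra (-0.11, adjusted p = 0.62) and Lifr (0.58, adjusted p = 0.24) did not pass. The change of Lifr was 2.20 in line #3 and between -0.046 and 0.15 in the others.

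Csf1r, the receptor of Csf1, had DMSO values of 10.2, 1.05, 17.5 and 46.9 and trametinib values of 124, 14.2, 79.9 and 340 normalized counts (lines #1, #3, #5 and #10). It was higher in every line, although the groups overlapped, with a log2 fold change of 2.83 (SE 0.31, limma adjusted p = 0.00070, and 0.089 without the block). Csf1r is also a macrophage marker. Of the other leukocyte markers measured, Ptprc stood at 4.05 to 17.2 normalized counts and Lyz2 at no more than 1.91 in any library, Adgre1 and Tyrobp were not in the table, and the 4 others that were tested were not called, where 27.3% of all genes tested were called higher and 25.6% lower. The summed level of the 10 leukocyte markers in the table, most of it Cd14, was 1130 to 2684 with DMSO and 1363 to 3821 with trametinib. Without line #3 Cd14 was called higher (limma adjusted p = 0.014), the only 1 of 14 alternatives that called it. In bulk RNA, fewer cells of a type and less RNA per cell cannot be told apart, and the part of other cells in the Csf1r values was not tested.

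Csf2ra, the binding chain for GM-CSF, rose in every line, from 171, 160, 140 and 34.5 to 416, 625, 434 and 81.8 normalized counts in the same order, by 1.52 on the log2 scale (SE 0.18, limma adjusted p = 0.00098, and 0.14 without the block). Csf2rb, the chain that GM-CSF needs to signal, was listed at 0 in all 8 libraries, and its close copy Csf2rb2 was listed at 0 in 7 and at 7.28 in the DMSO library of line #3. Reads of such near-identical genes may be shared between them in counting. Csf3r stood at no more than 4.99 in any library.

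Of the interleukin-1 receptors, Il1r1, through which Il1a signals, fell by 0.81 (SE 0.15, limma adjusted p = 0.0038, and 0.34 without the block), with 964 to 3892 normalized counts with DMSO and 424 to 2468 with trametinib. Il18r1, the binding chain for IL-18, rose by 1.18 (SE 0.39, limma adjusted p = 0.040), a call that was lost in 7 of 14 alternative analyses, without line #3, #5 or #10 among them (adjusted p of up to 0.28 in limma). Its partner Il18rap (-0.68, adjusted p = 0.071), the IL-33 receptor Il1rl1 (0.083, adjusted p = 0.90) and the shared chain Il1rap (0.26, adjusted p = 0.27) did not pass the limma test. Il18rap changed by 0.16 in line #3 and by -1.60, -0.64 and -0.62 in lines #1, #5 and #10, and it was called lower in 2 of 14 alternatives, without line #3 and with quantile normalization (limma adjusted p down to 0.010). Il1r2, a decoy receptor, stood at no more than 5.19 in any library, and Il11ra2 was listed at 0 in all.

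**Figure D4:**
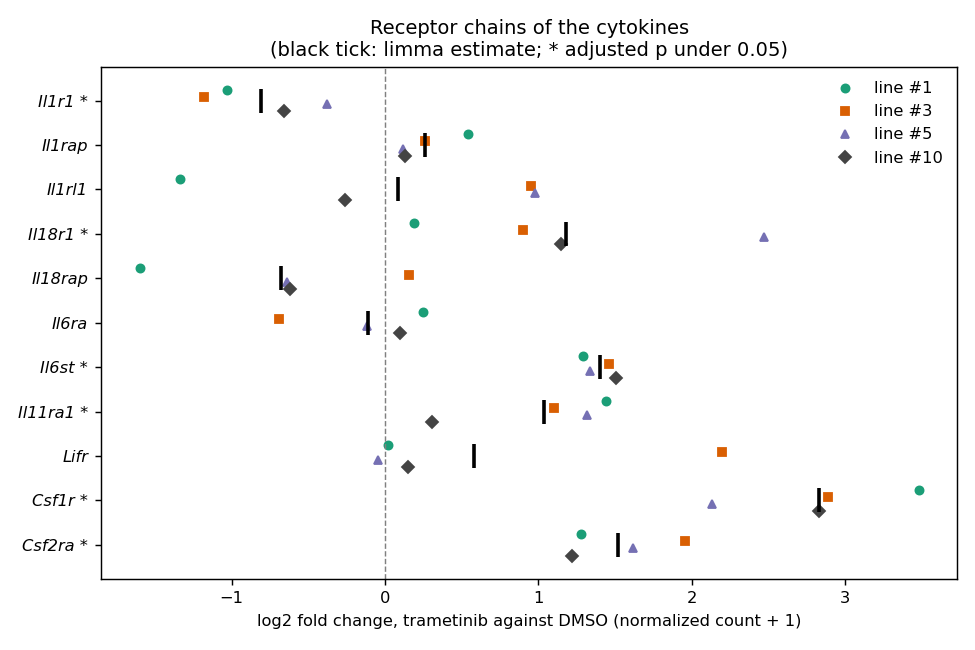
Log2 fold change with trametinib of the 11 tested receptor chains in each line (colored symbols), with the limma estimate (black tick). The 4 lines lie close together for Il6st, around 1.40, and Lifr is high in line #3 only, at 2.20.

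IL-18 and IL-1 are made as proteins that must be cut or released, and 10 of 16 genes of these steps were tested, with 3 higher and 4 lower (27.3% and 25.6% over all genes tested). Casp1, which cuts pro-IL-18, was listed at 0 in 7 libraries and at 0.936 in the trametinib library of line #3, where Il18 mRNA was highest. Casp4, a caspase of the non-canonical inflammasome, was called higher at 1.40 (SE 0.41, limma adjusted p = 0.026), but passed the filter only through its trametinib values, with DMSO values of 1.49 to 17.1 normalized counts, 3 of 4 under the floor. The call was lost in 5 of 12 alternatives, without line #1 or #5 among them (adjusted p of up to 0.26 in limma). Anxa2 fell by 1.49 (limma adjusted p = 0.00037) and S100a13, a carrier in IL-1 alpha export, by 1.24 (adjusted p = 0.0019). Casp8 fell by 0.43 (limma adjusted p = 0.0059), while the pore-forming Gsdmd did not pass. The inhibitor Il18bp stood at 117 to 231 normalized counts with DMSO and at 89.4 to 141 with trametinib, with a log2 fold change of -0.45 (limma adjusted p = 0.14). Per kb of exon, Il18bp averaged 52.2 ± 16.6 normalized counts with DMSO and 37.4 ± 7.03 with trametinib, against 26.5 ± 26.1 and 314 ± 167 for Il18 (mean ± SD, n = 4 lines).

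Ligands outside these 10 genes were read from lists of related genes, beside 27.3% higher and 25.6% lower over all genes tested. Of 9 other gp130 ligands 5 were tested and Clcf1 alone was called, with a rise of 0.65 (SE 0.13, limma adjusted p = 0.0053) from 4378 to 5333 normalized counts with DMSO to 6483 to 8900 with trametinib. None of the 5 tested among 9 other haematopoietic growth factors was called, and that list includes Il34, the second ligand of Csf1r, at 0.027 (limma adjusted p = 0.93). Of 34 other secreted cytokines 9 were tested, with Tnfsf13 (1.55, limma adjusted p = 0.0078) and Il23a (1.39, adjusted p = 0.037, past the filter only through its trametinib values, up to 0.13 and lost in 6 of 12 alternatives, without line #3 or #5 among them) higher and Tnfsf9 (-1.58, adjusted p = 0.00050), Mif (-1.41, adjusted p = 0.00079) and Spp1 (not called without the block, 0.12) lower. Il4, Il12b, Il13, Il22, Il25, Ifnb1 and Ifng were listed at 0 in all 8 libraries.

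Genes downstream of gp130 and STAT3 moved in both directions. Of 18 listed genes 17 were tested, 8 were higher and 3 lower (27.3% and 25.6% over all genes tested), with a median log2 fold change of 0.68. Stat3, Cish, Junb, Lcn2, Osmr, Lbp, Hp and Icam1 were called higher, and Socs3, Il4ra and Timp1 lower. Junb was not called in 6 of 14 alternatives, without line #1, #5 or #10 among them (limma adjusted p of up to 0.58), and without the block Hp (0.052) and Timp1 (0.097) were not called. The acute phase gene Lbp rose by 3.11 (limma adjusted p = 0.00020) and the oncostatin M receptor Osmr by 2.65 (adjusted p = 0.0055). Hp, another acute phase gene, and Lcn2 passed the filter only through their trametinib values, with DMSO means of 2.76 and 4.19 normalized counts and some DMSO libraries at or under the floor, so their calls are no support for the list. Their log2 fold changes were 2.45 (limma adjusted p = 0.0024) and 2.35 (adjusted p = 0.031). The call of Lcn2 was lost in 7 of the 12 alternatives that gave a value, without line #1 or #3 among them (limma adjusted p of up to 0.083).

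Of 22 transcription factors known at cytokine promoters, all tested, 13 were higher and 5 lower, beside 27.3% higher and 25.6% lower over all genes tested. The immediate early factors Egr1 (-4.64, limma adjusted p = 9.4e-05), Fosl1 (-3.73, adjusted p = 0.00031) and Fos (-1.89, adjusted p = 0.0010) fell together with Fosb and Nfatc1. Atf3, a stress-induced factor, rose by 2.41 (limma adjusted p = 0.00015), and Jun, Jund, Fosl2, Stat3, Relb and Nfkb1 were also called higher in each of 14 alternatives. Less stable calls of a rise were those of Rela and Ets1, lost without the block (limma adjusted p of 0.098 and 0.091), Nfkb2, called in 10 of 14 alternatives, and Junb, Cebpd and Ets2, called in 8, 8 and 7 of 14. Leaving out line #1 or #5 ended the calls of Nfkb2, Junb, Cebpd and Ets2, as did leaving out line #10 for Nfkb2, Junb and Ets2 and line #3 for Cebpd, with a limma adjusted p over the alternatives of up to 0.27 for Nfkb2, 0.58 for Junb, 0.10 for Cebpd and 0.62 for Ets2. The fall of Fosb was not called without line #1 or without the block (limma adjusted p of up to 0.12), nor that of Nfatc1 without the block (0.069). Subunits of AP-1, whose motif stands in the Il1rn and Lif windows shown above, thus moved in both directions, and whether any of them acts there was not tested.

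**Figure D5:**
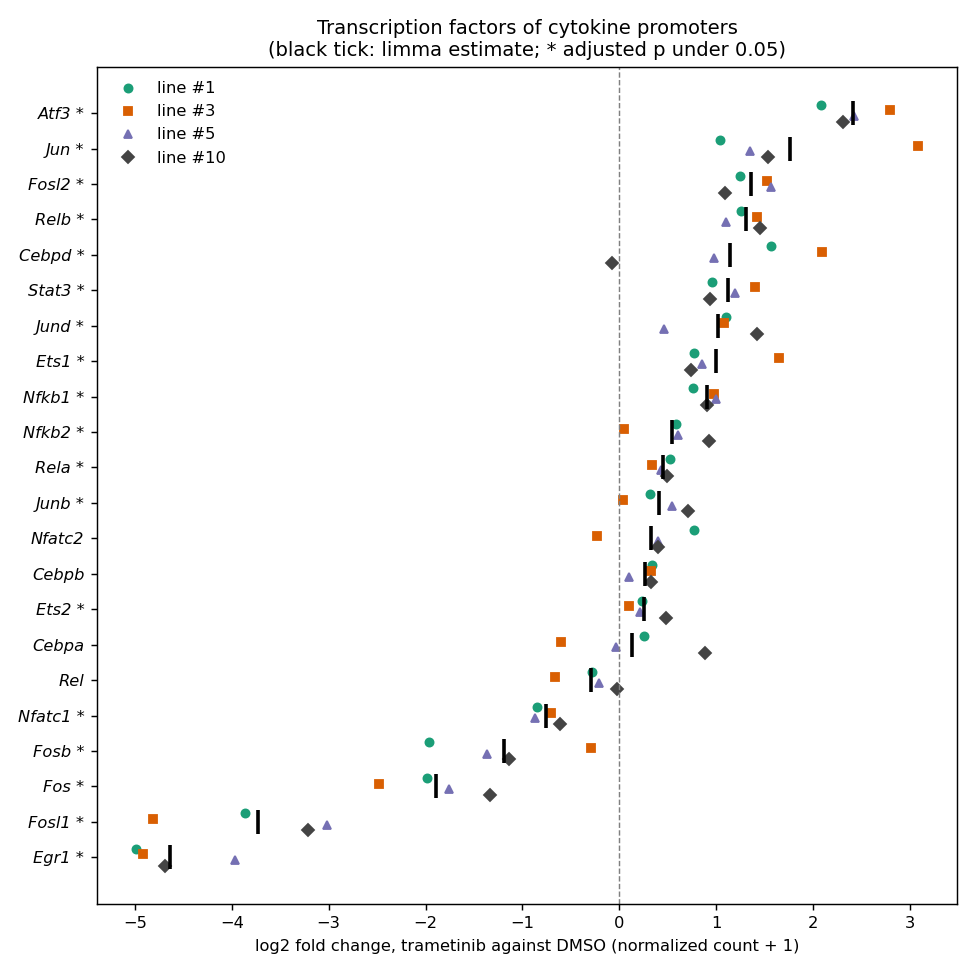
Log2 fold change with trametinib of 22 transcription factors of cytokine promoters in each line (colored symbols), with the limma estimate (black tick), in order of that estimate. Egr1 and Fosl1 lie at the bottom at -4.64 and -3.73, and Atf3 lies at the top at 2.41.

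The 16 listed genes for factors that act on cytokine mRNA were all tested, and 5 were higher and 5 lower (27.3% and 25.6% over all genes tested). Their median log2 fold change was 0.10. Not all of them bind AU-rich elements. Among the called genes, Zc3h12a, Rc3h2 and the kinase gene Mapkapk2 (higher) and Ythdf2 (lower) are not classic binders of these elements. Zfp36l1, a decay factor, rose by 1.29 (SE 0.12, limma adjusted p = 0.00045), and its relative Zfp36l2 fell by 1.23 (SE 0.12, adjusted p = 0.00058). Hnrnpd, known as AUF1, fell by 1.17 (limma adjusted p = 0.00025), and Tia1, a translational silencer, rose by 0.73 (adjusted p = 0.0030). Zfp36, which encodes tristetraprolin, did not pass, at 0.18 (limma adjusted p = 0.48), with -0.57 in line #3 and 0.58, 0.13 and 0.58 in lines #1, #5 and #10. Without line #3 it was called higher, at 0.43 (limma adjusted p = 0.023), the only 1 of 14 alternatives that called it. Of the cytokines with a nonamer, Csf2 fell and Il11 did not pass the test.

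Each tested cytokine was also matched to the 3 genes with the most similar course, by Pearson's r of log2 values over the 8 libraries among genes that passed the filter. The closest genes were Lix1l for Csf1 (r = 0.996), Actl6a for Csf2 (0.996), Tyk2 for Il18 (0.991), Psmd7 for Il33 (0.998), Coq2 for Il1rn (0.985), Frmd6 for Lif (0.976), Ptpdc1 for Csf3 (0.987) and Gm42566 for Il11 (0.956). The next were Afap1l2 and Frmd8 for Csf1, Smc3 and Isg20l2 for Csf2, and Esyt1 and Gm26660 for Il18. For Il33 they were Rpl14 and Metrn, for Il1rn S100a14 and Bola3, for Lif Ehd2 and Btg1, for Csf3 Mmp10 and Ipo13, and for Il11 Egfros and Ttc33. These values describe 8 points that share lines and treatment, and with 15888 genes to choose from the highest r is high in any case.

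Markers of other cell types were mostly low, with values that moved for a few of them, where 27.3% of all genes tested were called higher and 25.6% lower. The 12 mesenchymal markers summed to 47099 to 89352 normalized counts with DMSO and 32572 to 55647 with trametinib, nearly all of it Vim, while Lum was listed at 0 throughout. Of 6 mesenchymal markers tested Col1a1 was called higher, with a log2 fold change of 3.08 to 3.95 over the alternatives and a call in 14 of 14. Vim was called lower (-0.78, limma adjusted p = 0.0023, not called without the block at 0.052). The 6 endothelial markers summed to 42.3 to 90.4 and 76.6 to 1785. Of 4 tested, Tek and Vwf were called higher. The log2 fold change of Tek was 3.09 to 4.38 over the alternatives, but Tek passed the filter only through its trametinib values. That of Vwf was 1.17 to 2.65, and Vwf was called in 6 of 14 alternatives, not without line #1 or #3 (limma adjusted p of up to 0.21). The 5 mast cell markers in the table summed to 6.32 to 239 and 84.0 to 1485, nearly all of it Kit. The log2 fold change of Kit was 2.53 to 3.40 over the alternatives, and Kit was called higher, though not without the block (limma adjusted p = 0.12). Acinar markers summed to 31.0 to 249 and 20.4 to 126, with Cpa1 listed at 0 throughout and Cela1, the 1 tested, called lower (-0.73, limma adjusted p = 0.026), though not without line #1, #5 or #10 or without the block (adjusted p of up to 0.52). The part of such cells in the cytokine values was not tested.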

How the data were processed

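The values are a signal per gene, normalized counts that the authors scaled between libraries and deposited for 34478 gene symbols with no filter on low genes. RNA was taken from primary PDAC lines, of whose genotype 1 further allele is not reported here, and stranded mRNA libraries were made from 100 ng of RNA and sequenced from both ends. The submitters' processing notes name CASAVA 2.17, Salmon 0.12, DESeq2 1.18 and mm10, without saying which did what, and the annotation is not given in the sources used here. Scaling between libraries sets the sign of small changes, so other scalings were tried.

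All 8 columns were used. Only 57.0% to 67.8% of low values (up to 20 steps) lay within 0.05 of a whole step between reads, so no count test was run, and depth comes from that step. Values were tested as log2(value + 1) in limma 3.58.1 (R 4.3.3) with lmFit and eBayes with a trend, the cell line as a block, genes with a mean of 10 or more, and an adjusted p of 0.05 as threshold. The 2 libraries of a number come from the same line, as the labels state, and their deviations from the group means correlated across genes at 0.63 to 0.72. Line terms were tested by an F-test in the same fit. Tables and plots were made with Python 3.11.15, pandas 2.3.3, numpy 2.4.6, scipy 1.17.1 and matplotlib 3.10.9. Floors and 95% intervals of read ratios cover counting error only.

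The cytokines, the gene lists and the rule for named genes were chosen with earlier results of these data known. The rule names all 10 cytokines, every receptor, Dusp6, at most 4 called genes per list with the largest change, and the 3 genes most like each cytokine; Gsdmd, Il18bp, Il34, Il1b, Casp1, Zfp36, Socs3 and other list members named beyond it, and genes overlapping a cytokine, were added after their values were seen. The alternatives were pseudocounts of 0.1 and 5, equal totals, quantile normalization, centring on the median, no filter, a mean of 50, no block, eBayes without trend or with robust estimation, and leaving out each line.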

Additional observations from a re-analysis of the deposited data

Results flagged for a closer look

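Groups of 4 values were screened for a library far from the other 3 by Dixon's test. It marked 13 of 137 groups, where chance marks about 1 in 20, or 6.85. Among the cytokines, the trametinib library of line #3 was low for Csf1 at 4326 normalized counts (others 12935 to 13940) and for Csf2 at 1.89 (others 12.5 to 14.5). The DMSO library of line #1 was high for Il1a at 27.1 (others 0 to 1.92), and Il1a was at 0.961 in the trametinib library of line #10 (others 0), which is about 1 read.

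Among receptors, Il6ra was high in the DMSO library of line #3 at 464 normalized counts (others 267 to 293). The log2 change of Lifr was 2.20 in line #3 (others -0.046 to 0.15) and that of Il1r2 was -0.95 in line #10 (others 0 to 0.090). Csf2rb2 was at 7.28 in the DMSO library of line #3 and at 0 in the others, with a log2 change of -3.05 there. In the other lists, Casp4 was at 17.1 normalized counts in the DMSO library of line #3 (others 1.49 to 2.90), Atf3 at 171 in the same library (others 308 to 321), and Zfp36l1 at 1832 in the trametinib library of line #3 (others 4249 to 4497). The log2 change of Tnfsf13 was 2.58 in line #10 (others 1.11 to 1.29). Line #3 thus gave 9 of the 13 marks, with the value and the change of Csf2rb2, which rest on the same DMSO library, counted apart. Whether a change differs between lines could not be tested with 1 library per line and treatment.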

How the results depend on the processing

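Csf1, Csf2, Il18, Il33 and Il1rn kept their direction and call in 14 of 14 alternatives. For the 8 tested cytokines, 104 of 110 values kept both, and 41 of 41 counts of called cytokines stayed within 1.5 times. Lif was no longer called without the replicate block (log2 fold change -0.72, limma adjusted p = 0.35), and over the fits that left out a line it ran from -0.87 to -0.58. Csf3, never called, changed sign with equal totals (0.12) and ran from -0.27 to 0.16 when a line was left out, above 0 without line #1 (0.16), #5 (0.065) or #10 (0.021). The cause was not tested. Il11 and Csf3 have no value at a mean of 50. The change of Il1rn minus that of Il1a was not computed, since Il1a did not pass the filter.

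Without the replicate block for the paired lines, all genes gave 2205 higher and 2347 lower calls in place of 4341 and 4075. Called genes then numbered 10 in place of 18 for transcription factors and 7 in place of 11 for the gp130 output. Also without the block, factors acting on cytokine mRNA gave 6 in place of 10, and IL-1 release 3 in place of 7. Receptors gave 2 in place of 6 there, and other cytokines 3 in place of 5. With the block and a mean of 50, other cytokines gave 3 too. Other gp130 ligands gave 2 with centring, without trend and with quantile normalization and 3 with equal totals, in place of 1, and 1 to 2 when a line was left out. Other growth factors gave 1 with equal totals and with quantile normalization in place of 0, and 0 to 1 when a line was left out. In the list of other IL-1 ligands and the IL-18 binding protein, the inhibitor Il18bp was the only gene tested. It was called lower with quantile normalization, so this list gave 1 in place of 0. The list of IL-1 release gave 4 to 6 when a line was left out. The other 108 of 126 list counts stayed within 1.5 times. Depth limits Il6, Il1a and Csf2 in line #3, which lie at a few reads.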
